A study of Caenorhabditis elegans with 2 samples.

Results

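Aminoacyl-tRNA synthetase genes were taken as the protein-coding genes of the WBcel235 annotation whose symbol is a single letter (or ep) followed by ars-1 or ars-2, which gave 31 of 19973 protein-coding genes, 20 of them numbered -1 and 11 numbered -2. The study mapped the genomic sites of DPL-1 by chromatin immunoprecipitation and sequencing (ChIP-seq) in whole Caenorhabditis elegans at the first larval stage (L1), sexes pooled. Both samples, biological replicates 1 and 2 of 1 group, came from strain OP105, in which a transgene, wgIs105, expresses DPL-1 fused to TY1, EGFP and FLAG and carries unc119, in unc119(ed3) animals. What drives the transgene is not given in the sources used here, whole larvae mix all tissues, and no group without the tagged protein was analysed here. A gene was counted as bound when a peak had its summit (highest point) within its promoter window, which reached 1000 bp upstream and 200 bp downstream of each transcript 5' end. Peaks came from the list the authors thresholded on IDR (irreproducible discovery rate), which scores how well the ranks of peaks repeat across replicates. It held 2797 peaks with signals, in the units of the authors' caller, from 30.3 to 2461 and a median of 71.5. The peak lists hold no read counts, so the depth is unknown. With 1 group there was no contrast to test, and shares are given with exact 95% Clopper-Pearson intervals that cover counting error only.

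Aminoacyl-tRNA synthetases join each amino acid to its tRNA and so set the accuracy of translation. Nuclear genes encode both the cytoplasmic and the mitochondrial enzymes, some amino acids having a gene for each compartment and others a single gene whose product serves both. DPL-1 is the worm DP protein, the partner of E2F factors in the DREAM complex, which is best known for repressing cell-cycle genes through promoter sites called E2F and CHR (cell cycle genes homology region) elements.

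Of the 31 synthetase genes, 17 were bound (54.8%, 36.0 to 72.7), against 2866 of 19973 protein-coding genes, or 14.3%. The spread between replicates was wide. With as many peaks taken from the top of the 2 replicate lists, 2797 from each, 19 members were bound in replicate 1 and 13 in replicate 2, a mean of 51.6% ± 13.7 (SD, n = 2), while the shares of all protein-coding genes were 14.4% and 13.8%. Each bound member had exactly 1 IDR peak in its window, and the 17 peaks were distinct. Their signals ran from 32.5 to 419 with a median of 77.9, beside a median of 95.1 over the strongest peaks of all bound protein-coding genes, and 10 of the 17 (58.8%) exceeded the median of the list, close to the 61.9% of all bound protein-coding genes. No member lay on the X chromosome.

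**Figure D1:**
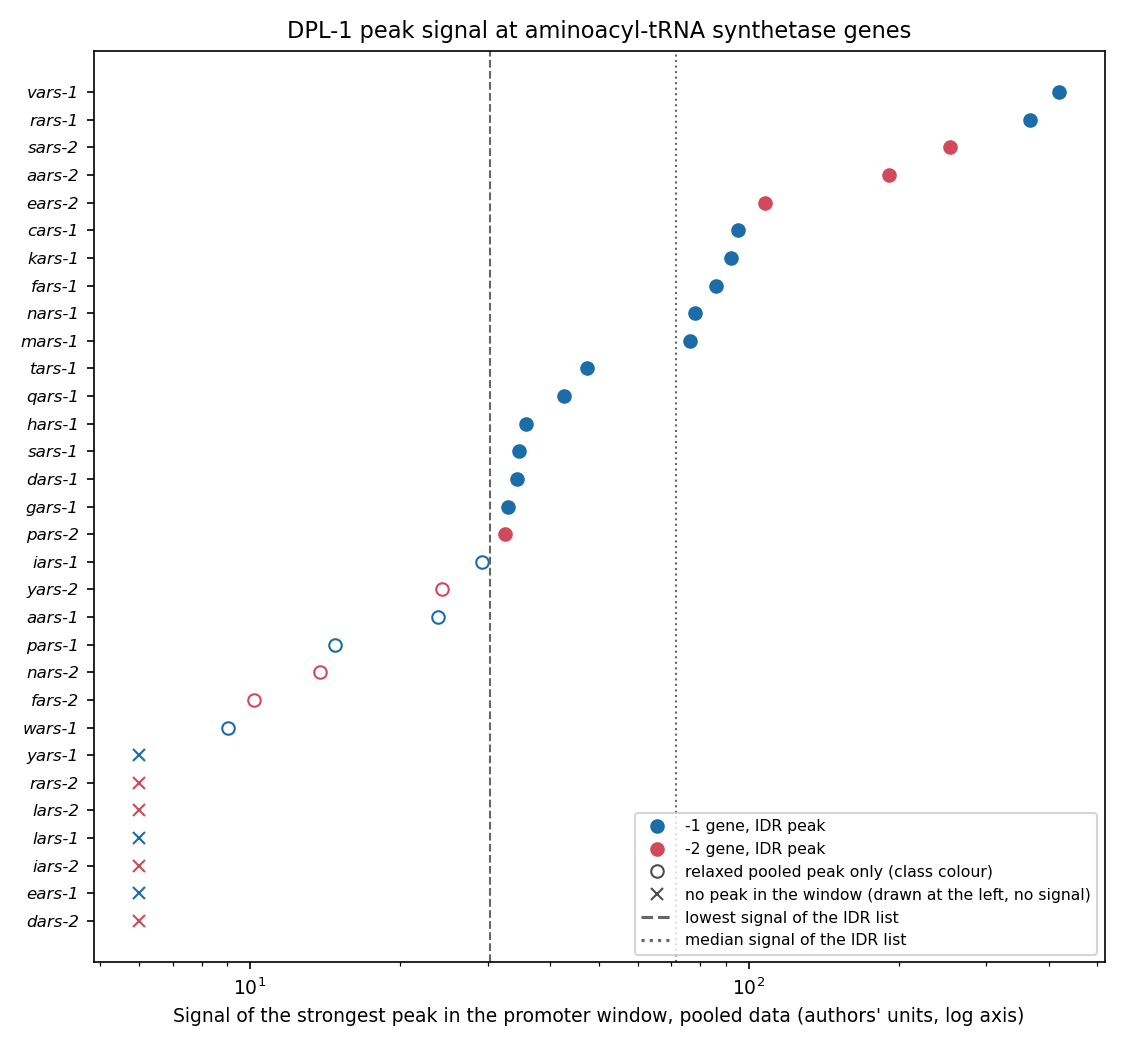
Signal of the strongest peak in each member's promoter window in the pooled data (log axis, authors' units), 1 row per gene. Filled points are IDR peaks, open points are peaks of the relaxed pooled list only, and crosses mark members with no pooled peak. The signals descend from vars-1 (419) to pars-2 (32.5) across the 17 bound genes, and iars-1 (29.2) lies just under the lowest IDR signal.

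The strongest synthetase peaks were at vars-1, rars-1 and sars-2, each with a signal in the upper part of the IDR list. At vars-1, which encodes a valine--tRNA ligase, the summit (V:8031357, peak V:8031228-8031468) lay in intergenic DNA 54 bp upstream of the 5' end. Its signal was 419, rank 224 of the IDR list, and the matching summit ranked 199 in replicate 1 and 271 in replicate 2. This summit fell in no other gene's window. The peak of rars-1, for arginine, had a signal of 367 (III:4918151, peak III:4918044-4918259, rank 279) and ranked 314 and 229 in replicates 1 and 2. It lay 974 bp upstream of rars-1 but only 143 bp upstream of rpb-8, a gene for a subunit shared by the nuclear RNA polymerases, which ends 65 bp before rars-1 begins on the same strand. The rars-1 call therefore rests on a summit at the edge of the window that is nearer to another gene. At sars-2, for serine, the summit (IV:4357488, peak IV:4357384-4357588) lay 148 bp upstream and 509 bp upstream of the divergent gene W03B1.9. Its signal was 254, rank 432, with replicate ranks of 406 and 524. In replicate 2 rars-1 ranked ahead of vars-1, and sars-2 came after both in each replicate.

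The 201 bp centred on these 3 summits were printed to show what the strongest sites hold. They are the plus strand of the reference (RefSeq WBcel235), with CHR matches, TTTGAA or TTCGAA on either strand, in capitals. The rars-1 and sars-2 windows hold such matches and the vars-1 window none. The E2F-like motifs searched, TTCCCGC and 3 like it, were found in none of the 3 on either strand.
vars-1 (V:8031257-8031457): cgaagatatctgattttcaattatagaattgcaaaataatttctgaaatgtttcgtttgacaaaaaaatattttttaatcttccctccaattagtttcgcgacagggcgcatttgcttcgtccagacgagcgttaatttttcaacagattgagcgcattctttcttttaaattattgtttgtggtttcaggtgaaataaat
rars-1 (III:4918051-4918251): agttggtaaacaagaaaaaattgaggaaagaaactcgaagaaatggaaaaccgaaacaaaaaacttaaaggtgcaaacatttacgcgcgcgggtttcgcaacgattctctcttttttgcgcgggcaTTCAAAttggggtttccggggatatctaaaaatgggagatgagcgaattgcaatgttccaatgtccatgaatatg
sars-2 (IV:4357388-4357588): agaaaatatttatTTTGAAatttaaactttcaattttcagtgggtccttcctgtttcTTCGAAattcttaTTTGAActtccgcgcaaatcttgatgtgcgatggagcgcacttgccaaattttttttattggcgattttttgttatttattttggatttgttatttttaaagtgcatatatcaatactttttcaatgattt

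E2F-like letters were found at few of the bound members. The motifs searched were TTCCCGC as well as TTGGCGC as well as TTCGCGC as well as TTGCCGC. A match lay within 100 bp of the summit in 2 of 17 bound members (11.8%, 1.46 to 36.4), against 24.1% of the 2095 IDR peaks that lie in a promoter window and 6.89% of equal windows centred 150 bp upstream of all protein-coding genes. A CHR match was found in 8 of 17 (47.1%, 23.0 to 72.2), against 56.6% of those peaks and 55.9% of the upstream windows. The median GC content of the 201 bp was 35.8% at the members and 39.8% at the promoter peaks. In windows of the same length centred 150 bp upstream of the 14 members without a peak, no E2F-like match and 9 windows with a CHR match were found. The comparison with other promoter peaks depended on the letters: with an extra leading T the share was 11.8% at the members and 12.1% at those peaks. A match is a run of letters and not a shown site.

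The members with an E2F-like match were cars-1 and aars-2, and both also held CHR matches. The summit of cars-1, for cysteine (I:2629449, signal 95.4, rank 1064, replicate ranks 1042 and 1065), lay 872 bp upstream of the gene and 236 bp from the nearer edge of cars-2, which RefSeq annotates as a pseudogene. Its E2F-like match TTGGCGC was centred 12 bp from the summit on the side of the gene, and a TTCGAA match was centred 12 bp away on the other side. At aars-2, for alanine (I:3982928, signal 191, rank 566), the summit lay 255 bp upstream, with replicate ranks of 569 and 572. TTCCCGC occurred there at 30 bp and 36 bp on opposite sides of the summit, and TTTGAA at 46 bp. Neither summit fell in the window of another protein-coding gene.

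Among the other bound members the signals fell from 108 at ears-2 to 32.5 at pars-2. The ears-2 summit, for the mitochondrial glutamyl-tRNA synthetase (IV:390495, rank 956, replicate ranks 930 and 1166), lay 27 bp upstream of ears-2 and 65 bp upstream of the divergent gene uncp-18. The lysine gene kars-1 had a signal of 92.2 at an unshared summit 348 bp upstream (II:7072763, replicate ranks 1015 and 1384). The phenylalanine gene fars-1 (86.2), the asparagine gene nars-1 (77.9) and the methionine gene mars-1 (76.4) were also above the median of the list. They lay 883, 297 and 253 bp upstream of these genes (I:6215568, I:7090359 and IV:11635740). All 3 summits lay in a further window, of rbm-5, nduf-6 (a respiratory complex I subunit gene) and F58B3.6 respectively. Below the median came tars-1 for threonine (47.4), qars-1 for glutamine (42.7), hars-1 for histidine (35.8), sars-1 for serine (34.6), dars-1 for aspartate (34.3), gars-1 for glycine (32.9) and pars-2 for proline (32.5). Of these, the summits of pars-2 (I:12486927), hars-1 (IV:10858863) and dars-1 (III:9491337) lay 17, 94 and 122 bp upstream. Those of sars-1 (IV:10003548) and qars-1 (IV:15013707) lay 178 and 524 bp upstream. The tars-1 summit (II:11694661) lay in an intron of tars-1 and of kel-1, 996 bp downstream of the outer 5' end of tars-1 and 368 bp upstream of an inner one. The gars-1 summit (III:5163157) likewise lay inside the gene, in an intron 470 bp downstream of the outer 5' end and 880 bp upstream of the inner one.

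Measured from the 5' end whose window holds it, the summit lay from 17 bp upstream at pars-2 to 974 bp upstream at rars-1, with a median of 255 bp against 222 bp over all bound protein-coding genes. For gars-1 and tars-1 that is an inner 5' end, and the summit lies inside the gene. In 11 of 17 the summit also fell in the window of another protein-coding gene (64.7%, against 58.0% of all bound genes), and in 10 of these 11 a gene sharing it was on the other strand. The 5' end nearest to the summit belonged to another gene in 6 cases, all of them -1 genes: rars-1 (rpb-8), fars-1 (rbm-5), tars-1 (kel-1), qars-1 (Y41E3.7), sars-1 (C47E12.2) and dars-1 (ctr-9, which encodes a subunit of the PAF1 complex of transcription elongation). With summits given to the nearest gene only, 11 of the 17 stayed bound, beside 2022 of the 2866 bound protein-coding genes. Of the 17 bound members, 13 are -1 genes. By annotation 14 summits were intergenic, 2 lay in introns and 1 in a 3' UTR, that of T08B2.15 near fars-1. No bound member had a tRNA gene within 500 bp of its summit, and 1.00% of the IDR peaks in promoter windows had one, so at 17 summits no difference was detectable.

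**Figure D2:**
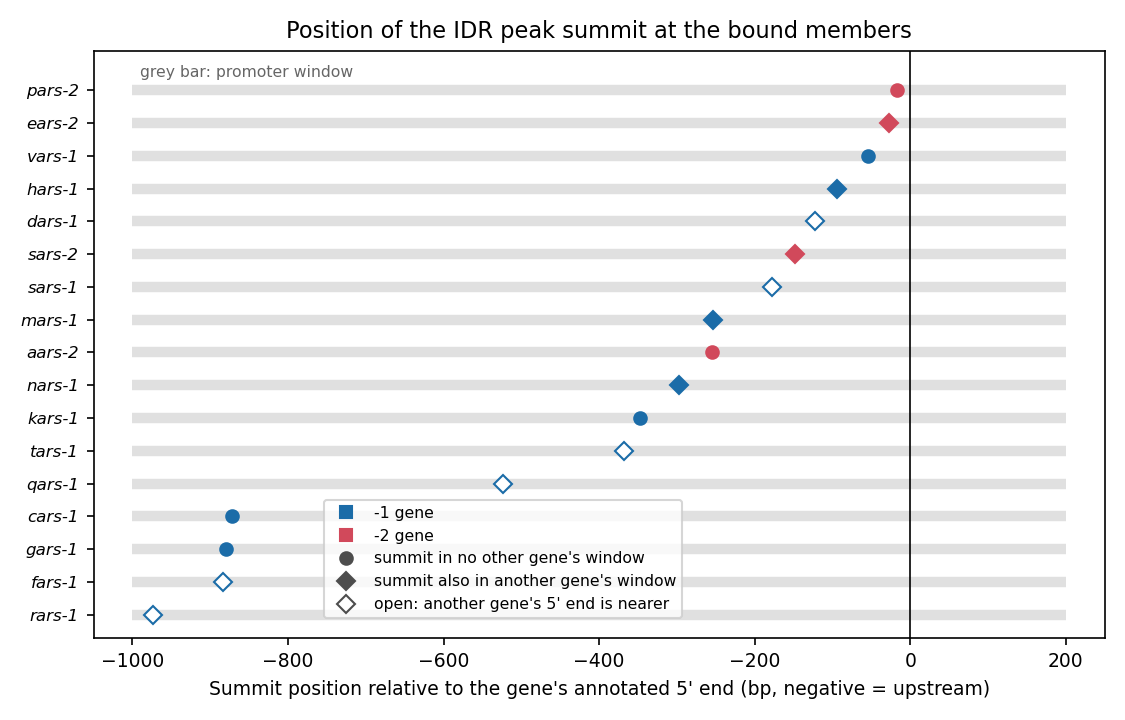
Position of the IDR summit relative to the 5' end whose window holds it, in bp, for the 17 bound members, with the promoter window as a grey bar. Circles are summits in no other gene's window, diamonds are shared summits, and open diamonds are summits nearer to another gene's 5' end. All 6 open diamonds are -1 genes, as are 13 of the 17 bound members. The summits spread from 17 to 974 bp upstream, those of gars-1 and tars-1 measured from an inner 5' end.

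The -1 genes, mainly of the cytoplasmic enzymes, had a peak in 13 of 20 promoters (65.0%, interval 40.8 to 84.6), and over the replicates the share was 60.0% ± 14.1 (SD, n = 2). The -2 genes, mainly of the mitochondrial enzymes, had one in 4 of 11 (36.4%, interval 10.9 to 69.2), and the replicates gave 36.4% ± 12.9 (SD, n = 2). The intervals overlap, and both shares were above the 14.3% of all protein-coding genes, although the interval of the -2 genes includes that value. Of the 11 amino acids with a gene of each number, only serine had a peak at both, sars-1 (34.6) and sars-2 (254). A peak lay at the -1 gene alone for 4 (arginine, asparagine, aspartate and phenylalanine), at the -2 gene alone for 3 (alanine, glutamate and proline) and at neither for 3 (isoleucine, leucine and tyrosine). Within these pairs the summits of rars-1, dars-1, fars-1 and sars-1 were nearer to the 5' end of another gene. Those of nars-1 and of the bound -2 genes were not, so the tally of pairs depends on how summits are assigned. Among the paired genes, those of each number were thus bound about equally often. Of the -1 genes with no -2 gene in the set, all except wars-1 were bound. Most of the difference between the numbers lay in these unpaired genes. The number in the symbol is not a reliable guide to the compartment: RefSeq names the product of aars-1 mitochondrial and that of aars-2 cytoplasmic. By those product names, 8 of the 10 members called cytoplasmic were bound, 2 of the 4 called mitochondrial (ears-2 and pars-2, but not aars-1 or rars-2), and 7 of the 17 with neither word. This count has the same limit: among those called cytoplasmic, the summits of tars-1, rars-1, dars-1 and sars-1 were nearer to another gene. The difference between -1 and -2 also depended on how summits were assigned. With each summit given to the nearest gene only, 7 of 20 -1 genes (35.0%) and 4 of 11 -2 genes (36.4%) were bound, beside 10.1% of all protein-coding genes.

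The -1 and -2 genes also differed in gene order. In worm operons a single promoter can serve several genes that lie closely spaced along a strand. A gene that begins within 500 bp downstream of the 3' end of a same-strand protein-coding gene is called here a downstream gene of a run. Such genes made up 6 of 11 -2 genes, 4 of 20 -1 genes and 18.1% of all protein-coding genes. None of the 6 downstream -2 genes was bound (0 of 6, interval up to 45.9%), and in replicate 1 alone 1 of them, yars-2, was. That interval includes the 10.2% of all downstream protein-coding genes, so 0 of 6 cannot be told from it. Among the -2 genes with no such neighbour 4 of 5 were bound (80.0%, 28.4 to 99.5), and among the -1 genes 10 of 16 (62.5%, 35.4 to 84.8). Of the downstream -1 genes 3 of 4 were bound (75.0%, 19.4 to 99.4), namely gars-1, rars-1 and vars-1, although the rars-1 summit is nearer to rpb-8. The gars-1 summit lay inside the gene, 880 bp upstream of an inner 5' end, and gars-1 was not bound in the strongest peaks of replicate 2. With a window of 500 bp upstream, vars-1 was the only bound gene of these 3. The share over all protein-coding genes was 10.2% for downstream genes and 15.3% for the others. The part of gene order in the difference was not tested.

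**Figure D3:**
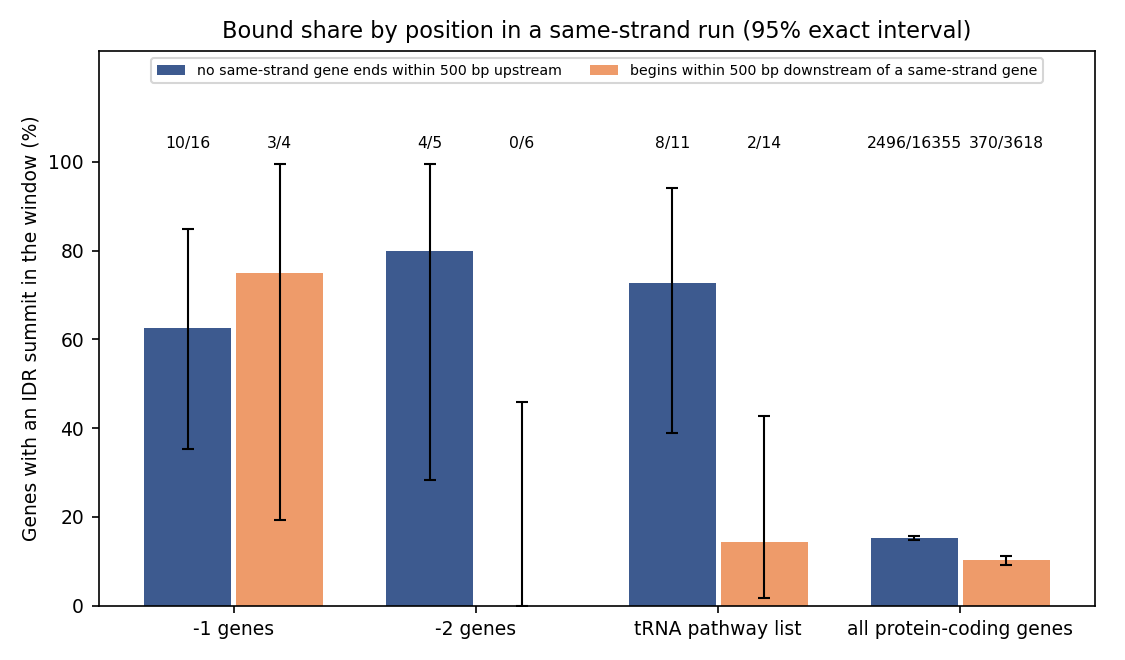
Share of genes with an IDR summit in the promoter window (bars, %, with exact 95% intervals), split by whether the gene begins within 500 bp downstream of a same-strand gene; counts stand above the bars. The -2 genes were bound in 4 of 5 cases outside runs and in 0 of 6 as downstream genes, and all protein-coding genes in 15.3% and 10.2%.

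Of the 7 downstream members without a peak of their own, 5 had a bound gene further up the run, against 33.2% of all such protein-coding genes. For dars-2, the second aspartate gene, the first gene of the run is F10C2.4, which encodes the catalytic subunit of DNA polymerase delta, and it carried a peak of signal 398 (rank 238, shared with the divergent gene kup-1). The run of iars-2 holds C25A1.16 (signal 299, shared with nola-3), that of lars-2 holds ZK524.4 (62.2), and that of nars-2 starts with Y66D12A.21 (45.5, shared with spe-6) followed by tin-10, which has no IDR peak. Upstream of rars-2 and yars-2 the genes C29H12.2 and miro-1 had none, although C29H12.2 had a pooled relaxed peak of rank 2925. Among the downstream -1 genes, gars-1 belongs to a run headed by prp-19, a splicing factor gene, whose peak (signal 263) lies 634 bp upstream of it, is nearer to the divergent gene K10D2.5 and is shared with emb-1 as well. In the tyrosine gene yars-1 the preceding gene is Y105E8A.20 (42.9), named mars-2 in RefSeq, for the mitochondrial methionine enzyme. The vars-1 gene follows oma-2, which has no IDR peak, so its own summit is the only one in the run. Counting a member as bound where its own window or that of a gene further up its run held a summit, an alternative chosen after seeing the data, gave 22 of 31 members (14 of 20 -1 genes and 8 of 11 -2 genes), against 19.7% of all protein-coding genes. Among downstream genes alone the counts were 8 of 10 members and 1447 of 3618 protein-coding genes (40.0%). Whether any of these runs is transcribed as 1 unit was not tested.

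Of the 14 members without an IDR peak, 7 had a weaker summit in the pooled relaxed list of 23883 peaks, which also reaches 31.4% of the unbound protein-coding genes. The summit of iars-1, for isoleucine, was closest to the list (signal 29.2, rank 2886, 587 bp upstream) and ranked 2197 in replicate 1 but 5268 in replicate 2. That of yars-2 (signal 24.3, rank 3400) ranked 2598 and 14899, and that of aars-1 (23.8, rank 3480) ranked 2826 and 3300. The remaining relaxed peaks, at pars-1 (14.8), nars-2 (13.8), fars-2 (10.2) and wars-1 (9.01), were far weaker. No pooled peak of any strength lay in the windows of dars-2, ears-1, iars-2, lars-1, lars-2, rars-2 or yars-1. The windows of dars-2, ears-1, iars-2 and lars-1 were empty in the relaxed lists of both replicates too. Of these, ears-1, for glutamate, and lars-1, for leucine, do not follow a same-strand gene, and their nearest IDR summits lay 5786 bp and 7011 bp away.

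The replicates differed mainly at the weak peaks. All 13 members bound in the strongest peaks of replicate 2 were bound in those of replicate 1, and 6 were bound in replicate 1 alone: gars-1, hars-1, iars-1, pars-2, sars-1 and yars-2. Their strongest pooled peaks ranked from 2431 to 3400, near or past the end of the IDR list, and 4 of the 6 are IDR peaks. A replicate summit lay within 100 bp of the IDR summit for all 17 bound members in replicate 1 and for 15 in replicate 2, the exceptions being gars-1 and hars-1. The gars-1 window ranked 1867 in replicate 1 and 4462 in replicate 2. Since the IDR peaks carry the values of the pooled data, this matching is partly built in.

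**Figure D4:**
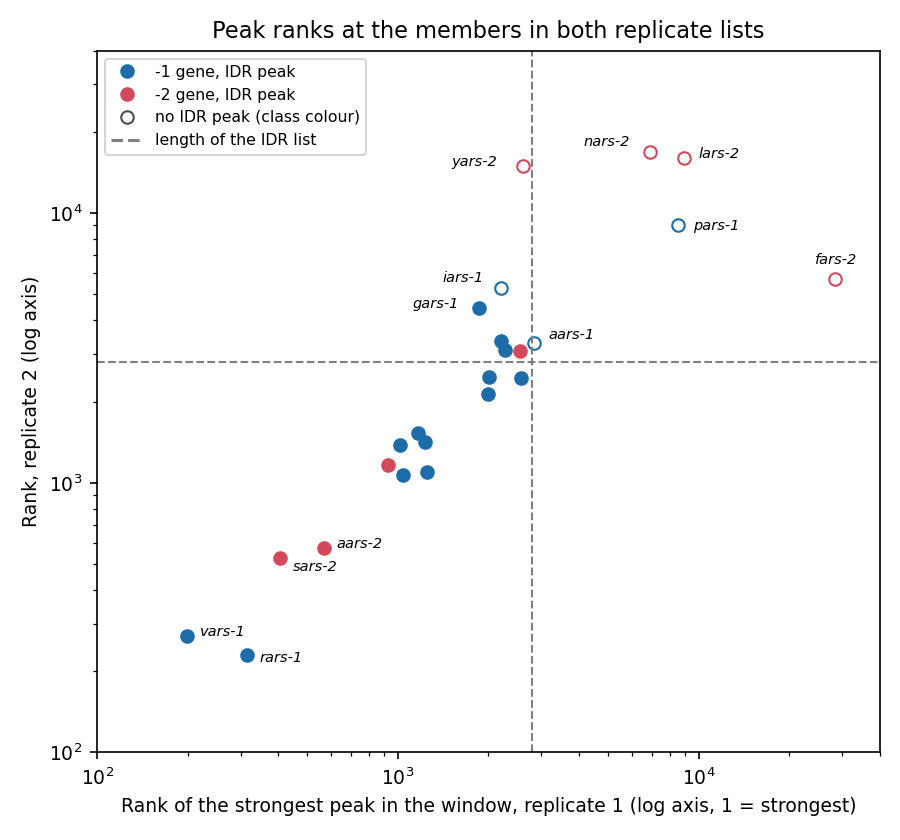
Rank of the strongest peak in the promoter window in replicate 1 (x) and replicate 2 (y), log axes, for the 24 members with a peak in both relaxed lists, filled where the member has an IDR peak. Dashed lines mark rank 2797. The strongest members lie near the diagonal (vars-1 at 199 and 271), and iars-1, yars-2 and gars-1 rank higher in replicate 1.

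A list of 26 names, mostly of tRNA maturation, modification and sensing, was set beside the members, and 25 were matched (osgl-1 was not). It includes 1 synthetase subunit gene outside the symbol rule, fars-3, which was unbound. Of these 10 had a peak (40.0%, interval 21.1 to 61.3, against 14.3% of all protein-coding genes), and the replicates gave 42.0% ± 2.83 (SD, n = 2). The strongest were gcn-1 (signal 754, rank 77) and gcn-2 (573, rank 136), an activator and the kinase of the response to uncharged tRNA, both above every synthetase gene. Then came nsun-5 and the tRNA ligase gene rtcb-1 (161 each), metl-1, a tRNA guanine-7 methyltransferase gene (150), the pseudouridine synthase gene pus-1 (136), atf-4, a transcription factor gene of the same response (85.0), mtcu-2, whose product modifies mitochondrial tRNAs (72.9), nsun-1 (52.4) and the Elongator gene elpc-2 (44.6). The gcn-2 summit lay 234 bp upstream of gcn-2 but 4 bp upstream of the divergent gene Y81G3A.1. Those of metl-1 and nsun-1 were also nearer to another gene (W02B12.11 and W07E6.5). Those of nsun-5, elpc-2 and atf-4 were shared with genes further away, and that of rtcb-1 lay 748 bp upstream. With each summit given to the nearest gene only, 7 of 25 were bound (28.0%), beside 10.1% of all protein-coding genes. RefSeq names 3 of the listed genes as rRNA methyltransferases, the bound nsun-1 and nsun-5 and the unbound nsun-4. Of the 25 genes, 14 were downstream genes of a run, of which 2 were bound (14.3%, 1.78 to 42.8), near the 10.2% of all downstream genes. Of the other 11 genes 8 were bound (72.7%, 39.0 to 94.0), against 15.3%. Among the unbound downstream genes were tut-1, hpo-31, gro-1 and popl-1.

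The share of bound synthetase genes stayed above that of all protein-coding genes under each setting tried. It was 38.7% with a window of 500 bp upstream (all genes 12.0%), 58.1% with 2000 bp (17.7%), 54.8% with 5' ends of protein-coding transcripts only (14.3%) and 54.8% with any base of a peak in the window (15.0%). It was 35.5% with the nearest gene only (10.1%), 32.3% with peaks above the median signal (8.88%) and 77.4% with all pooled relaxed peaks (41.2%). With the 500 bp window 8 of 20 -1 genes (40.0%) and 4 of 11 -2 genes (36.4%) were bound. With the peaks above the median signal they were 7 (35.0%) and 3 (27.3%).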

How the data were processed

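Per the file listings deposited with the samples, the authors called relaxed peaks in each replicate against 1 control file and in both pooled, and derived the IDR list from these 3. The deposited signal is the caller's value per peak on a scale that is not stated, so signals were ranked within a list and not compared between lists. For aligner, caller, IDR threshold and depth, the value is not given in the sources used here. In all, 4 lists on ce11 were used. The 2797 IDR peaks equal the 2797 strongest pooled peaks. The summit is the deposited start plus offset, given 1-based on ce11, and all peaks fit the chromosome lengths of the reference (Ensembl release 115 annotation, RefSeq sequence and product names, WBcel235). Summits in several windows counted for each gene. Scripts ran in Python 3.11.15 with scipy 1.17.1, and the calling rule was tested on simulated data. The members and lists were chosen with earlier results of these data known, so no list was tested. All members are named, as are the bound genes of the tRNA list. Other genes were named for sharing a summit or a run with a member, or for lying nearer to a summit of that list. The unbound examples of that list were chosen after their values were seen. The handling of multiply mapping reads is not stated. The labels call the replicates biological and give each its own biosample.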

Additional observations from a re-analysis of the deposited data

How the results depend on the processing

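With 2 samples and no contrast, only shares could be compared. A share is said to have moved where it changed by more than the SD between replicates. With replicate 1 or 2 left out the share ranged from 41.9% to 61.3% for all members, 50% to 70.0% for -1 genes, 27.3% to 45.5% for -2 genes and 40.0% to 44.0% for the tRNA list. The window of 500 bp moved all members to 38.7%, -1 genes to 40.0% and the tRNA list to 36.0%. Nearest genes only gave 35.5%, 35.0% and 28.0%, and peaks above the median signal 32.3%, 35.0% and 32.0%. All pooled relaxed peaks gave 77.4%, 85.0%, 63.6% (-2 genes) and 68.0% (tRNA list). The tRNA list (10 of 25, SD 2.83) moved to 48.0% (12 of 25) with 2000 bp and to 44.0% (11 of 25) with any overlapping base. The -2 genes had an SD of 12.9, so their 45.5% with 2000 bp (5 of 11, against 4 of 11) did not count as moved. The label thus depends on an SD from 2 values. Without downstream genes of runs, the -2 share was 80.0% and that of the tRNA list 72.7%. Counting genes further up a run, added after seeing the data, gave 71.0% for all members, 72.7% for -2 genes and 72.0% for the tRNA list. Classes by the RefSeq word mitochondrial gave 50% (2 of 4) in place of the -2 share and 55.6% (15 of 27) in place of the -1 share of 65.0%. The smaller gap is not one between compartments, since 17 of those 27 genes have neither location word. Where RefSeq states a compartment, 8 of 10 cytoplasmic and 2 of 4 mitochondrial genes were bound, counts that depend on how summits are assigned. The E2F-like share of 11.8% was also 11.8% within 50 bp and with an extra leading T, while that of promoter peaks fell from 24.1% to 18.6% and 12.1%. It was 10.5% to 15.4% with a replicate left out. No paired analysis was possible because the series holds 1 group. The cause of these movements was not tested.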

Other observations

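Synthetases fall into a pair of structural classes with unrelated catalytic folds. By this textbook grouping, added after the values were seen, 6 of 15 class I genes (40.0%, 16.3 to 67.7) and 11 of 16 class II genes (68.8%, 41.3 to 89.0) were bound, with overlapping intervals, beside 54.8% of all members and 14.3% of all protein-coding genes. Downstream genes of a run numbered 7 in class I and 3 in class II, and their part in this was not tested. The class I genes without a peak include both leucine, both isoleucine and both tyrosine genes. Of 8 members taken as counterparts of mammalian enzymes in the multisynthetase complex, 5 were bound (62.5%, 24.5 to 91.5): dars-1, kars-1, mars-1, qars-1 and rars-1, and not ears-1, iars-1 or lars-1. This grouping is not complete, since it leaves out the proline gene pars-1, which had no IDR peak. The share therefore holds for these 8 genes only.

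RefSeq product names give 5 more synthetase genes that the symbol rule leaves out. Beside 54.8% of the members and 14.3% of all protein-coding genes, 1 of these 5 had an IDR peak. That was Y105E8A.20 (signal 42.9), the mitochondrial methionine gene, whose summit ranked 1958 in replicate 1 and 4010 in replicate 2. The gene glp-4, a second valine--tRNA ligase gene, had a pooled relaxed peak of rank 3662 (signal 22.6) and no IDR peak, whereas vars-1 led the members at 419. Its window ranked 2797 in replicate 1, the last of the strongest peaks taken there, and 13514 in replicate 2. The phenylalanine beta subunit gene fars-3 had a relaxed peak of rank 13401, whereas fars-1 had an IDR peak of signal 86.2. The fars-1 summit lay 883 bp upstream and was nearer to rbm-5, so this contrast depends on how summits are assigned. The others were prx-10, which shares its locus with a mitochondrial tryptophan enzyme, and K03B4.1, with relaxed peaks of rank 16446 and 19048.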
